A study of Caenorhabditis elegans with 6 samples.

Results

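F15D4.5 is a protein-coding gene of the nematode Caenorhabditis elegans whose transcript was scarce in wild-type animals and abundant in plp-1 mutants. It was selected by its symbol, as 1 of 46745 named genes in the deposited gene table, because its counts differed between the groups in an earlier treatment of the same data. The wild-type against mutant difference of F15D4.5 is therefore given as a description without a test. The libraries hold messenger RNA of mixed-stage hermaphrodites, a population that spans embryos to adults, kept at 20 °C on OP50 bacteria. It compared the wild-type strain N2 (3 libraries) with plp-1(ok2155), labelled a loss-of-function allele of plp-1 (3 libraries), and neither group carried another listed allele or treatment. The plp-1 gene encodes a nucleic acid binding protein related to Pur-alpha.

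Endogenous small RNAs keep many C. elegans genes silent. Argonaute proteins carry 22G small interfering RNAs, made by RNA-dependent RNA polymerases, to complementary transcripts; the germline nuclear Argonaute HRDE-1 recruits silencing factors and repressive chromatin marks to the gene itself. Piwi-interacting RNAs (piRNAs, called 21U-RNAs in the worm) bound to the Argonaute PRG-1 can start this silencing. The working description of F15D4.5 is that of a gene silenced in this way. No small RNA libraries were analysed here, so that description rests on knowledge of the field and not on these data.

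Named genes held between 39330275 and 53472946 counts per library. The labels were checked on plp-1, whose level was 293.3, 430.3 and 379.0 CPM (counts scaled to a common library size after TMM normalization) in wild-type replicates 1, 2 and 3 and 20.4, 17.6 and 23.0 CPM in the mutant replicates. Wild-type replicate 1 had the lowest plp-1 level of its group, and all mutant libraries lay far below it. The labels call the libraries biological replicates without saying how the cultures were separated, so the tests measure the spread between these libraries. Among all 15090 tested genes 40 were higher and 12 lower in the mutant (edgeR's quasi-likelihood test, Benjamini-Hochberg adjusted p under 0.05), which is 0.265% and 0.0795%.

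The gene F15D4.5 (gene ID 174969) lies on the plus strand of chromosome II, and the WBcel235 annotation places it from 13245376 to 13247774. It has 7 exons with a summed length of 1660 bases. The first exon holds 10 coding bases behind a 5' untranslated region of 54 bases, and the last ends with a 3' untranslated region of 130 bases. The deposited tables list 1 transcript with a coding length of 1476 bases from 13245430 to 13247644, so no choice between transcripts could be examined. The tables describe the product as uncharacterized, and no role is assigned to it here.

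The library counts of F15D4.5 were 176, 67 and 42 in wild-type replicates 1, 2 and 3. Those of the mutant were 8503, 6468 and 5617 in the same order. Every wild-type library held some F15D4.5 reads, and the groups lay far apart. Scaled to library size, the level was 2.72, 1.42 and 1.26 CPM in wild-type and 189.0, 128.4 and 134.9 CPM in the mutant. The group means were 1.80 ± 0.805 CPM (SD, n = 3) and 150.8 ± 33.3 CPM (SD, n = 3), an 83.8-fold difference, and the lowest mutant library stood 47.1-fold above the highest wild-type library. Counting error was small beside this gap, since the exact 95% Poisson interval ran from 2.34 to 3.16 CPM in wild-type replicate 1, from 0.908 to 1.70 CPM in wild-type replicate 3 and from 125.3 to 131.6 CPM in mutant replicate 2. These intervals cover counting error only, and they treat the deposited counts, which are estimates rounded up, as if they were read tallies.

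Both groups varied within themselves, the wild-type one more. The highest wild-type library was 2.16-fold above the lowest, and the highest mutant library 1.47-fold above the lowest. Replicate 1 was the highest library in each group. Between libraries of the same replicate number, the mutant level was 69.4, 90.7 and 107.1 times the wild-type level for numbers 1, 2 and 3. The fitted log2 fold change was 6.37 (SE 0.42), which ranked F15D4.5 at place 19 among the tested genes, and leaving out 1 library at a time gave 6.10 to 6.80.

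**Figure D1:**
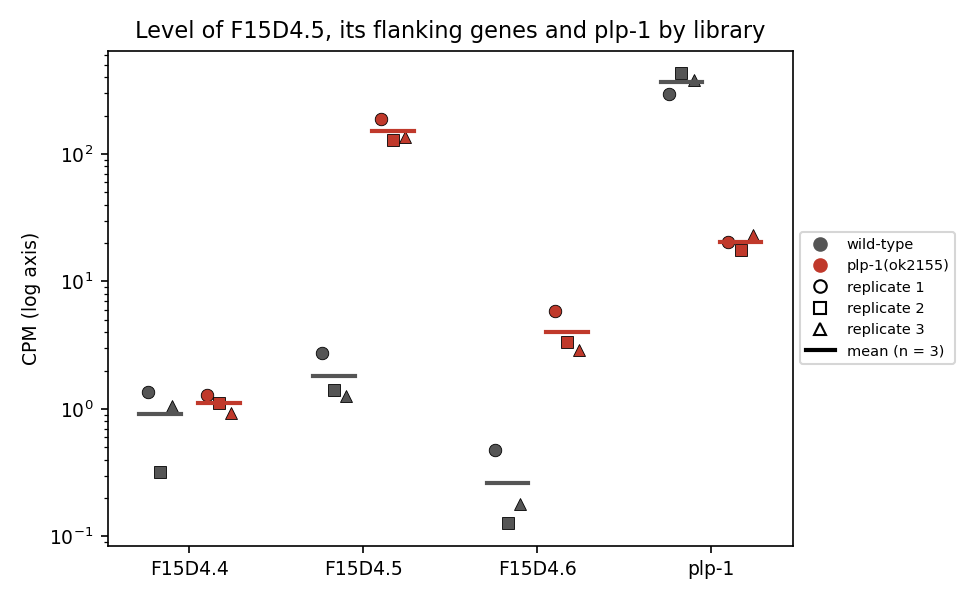
Level of F15D4.4, F15D4.5, F15D4.6 and plp-1 in CPM on a log axis, with 1 point per library and a bar at the mean of 3 libraries. F15D4.5 sits between 1.26 and 2.72 CPM in wild-type and between 128.4 and 189.0 CPM in plp-1(ok2155), F15D4.6 is shifted the same way at lower levels, and the F15D4.4 points overlap.

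Per length, F15D4.5 moved from the lower to the upper part of the expressed genes. In the authors' FPKM, fragments scaled to model length and to library size, it stood at 2.13, 0.857 and 0.686 in the wild-type libraries and at 118.6, 89.9 and 87.1 in the mutant libraries. Among 20090 protein-coding genes it lay above 45.7%, 42.8% and 40.2% of genes in wild-type replicates 1, 2 and 3. In the mutant libraries it lay above 92.6%, 88.6% and 90.1%. The median FPKM of the protein-coding genes above 0 lay between 5.52 and 7.501 in the 6 libraries, so F15D4.5 was below that median in each wild-type library and above it in each mutant library. For scale, the mutant level of 98.6 ± 17.4 FPKM (SD, n = 3) was next to 145.1 ± 41.8 FPKM for hrde-1 and 102.6 ± 19.1 FPKM for prg-1 in the same libraries, both genes of the silencing pathway itself.

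The next gene downstream, F15D4.6 (gene ID 184531), followed the direction of F15D4.5. It is transcribed from the same strand, from 13249186 to 13250063, and 1411 bases separate the annotated ends of the genes. Wild-type libraries held 31, 6 and 6 counts of it, and mutant libraries 263, 170 and 121. Replicate 1 was again the highest library of each group, and the groups did not overlap. Mean levels were 0.262 ± 0.190 CPM in wild-type libraries and 4.04 ± 1.58 CPM in mutant libraries (SD, n = 3 each). The log2 fold change was 3.90, with an SE of 0.66 and an adjusted p of 0.073 in edgeR's quasi-likelihood test. That missed the threshold, while the replicate number as a block gave a log2 fold change of 4.06 (edgeR adjusted p = 0.0067) and DESeq2 gave 3.89 (adjusted p = 2.4e-07). Only 0.709% of tested genes had a log2 fold change as high as that of F15D4.6 or higher.

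The levels of the pair per length differed between groups. F15D4.5 stood at 0.786, 1.75 and 1.050 times the FPKM of F15D4.6 in the wild-type libraries, and at 4.41, 5.20 and 6.35 times in the mutant libraries. All mutant ratios lay above all wild-type ratios, of which the last 2 rest on 6 counts of F15D4.6 each. F15D4.6 has 4 exons and a coding length of 201 bases. Whether reads of F15D4.6 came from transcripts that begin at F15D4.5 cannot be told from counts per gene and was not tested.

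On the other side the pattern was absent. F15D4.4 (gene ID 184530), on the minus strand 2254 bases upstream of the start of F15D4.5, held 88, 15 and 35 counts in the wild-type and 58, 56 and 39 in the mutant libraries. Its groups overlapped, with means of 0.910 ± 0.536 CPM for wild-type and 1.11 ± 0.176 CPM for the mutant (SD, n = 3 each). The log2 fold change was 0.29 (SE 0.60, adjusted p = 0.912 by edgeR), turning to -0.19 without wild-type replicate 2. The next genes, romo-1 and the FMRFamide-like neuropeptide gene flp-16, had fitted changes of 0.16 on the log2 scale (adjusted p = 0.911 by edgeR; -0.13 with wild-type replicate 1 left out and -0.03 with mutant replicate 3 left out) and -0.54 (adjusted p = 0.718). F15D4.2, further upstream, was at 26.1, 33.5 and 30.2 CPM in wild-type and 22.4, 20.8 and 16.4 CPM in the mutant, without overlap, but did not pass the test at -0.59 on the log2 scale (adjusted p = 0.557 by edgeR).

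Over the 10 tested genes on each side of F15D4.5, none passed the test in either direction (edgeR; 0.345% of all tested genes did), and 2, F15D4.6 and dmsr-3, had an unadjusted p under 0.05 (9.56% of all tested genes). With the replicate block (1.45% of all genes called) and with DESeq2 (3.42%) the count was 1, F15D4.6. Of these 20 genes 11 had a positive log2 fold change, with a median of 0.14 against -0.03 over all tested genes. Apart from F15D4.6, the 19 others lay between -1.57 and 0.53. The lowest was dmsr-3, named after its value was seen, at -1.57 (edgeR adjusted p = 0.272). Beyond F15D4.6 on the downstream side, Y48C3A.5 had a log2 fold change of -1.14 (edgeR adjusted p = 0.572) and the zinc finger gene ztf-22 -0.38 (adjusted p = 0.817). The groups did not overlap for 4 of the 20 genes, with F15D4.6 and his-73 higher and F15D4.2 and dmsr-3 lower, his-73 named after its values were seen. Over all tested genes the groups did not overlap for 14.2%, of which 8.75% were higher and 5.49% lower in the mutant.

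**Figure D2:**
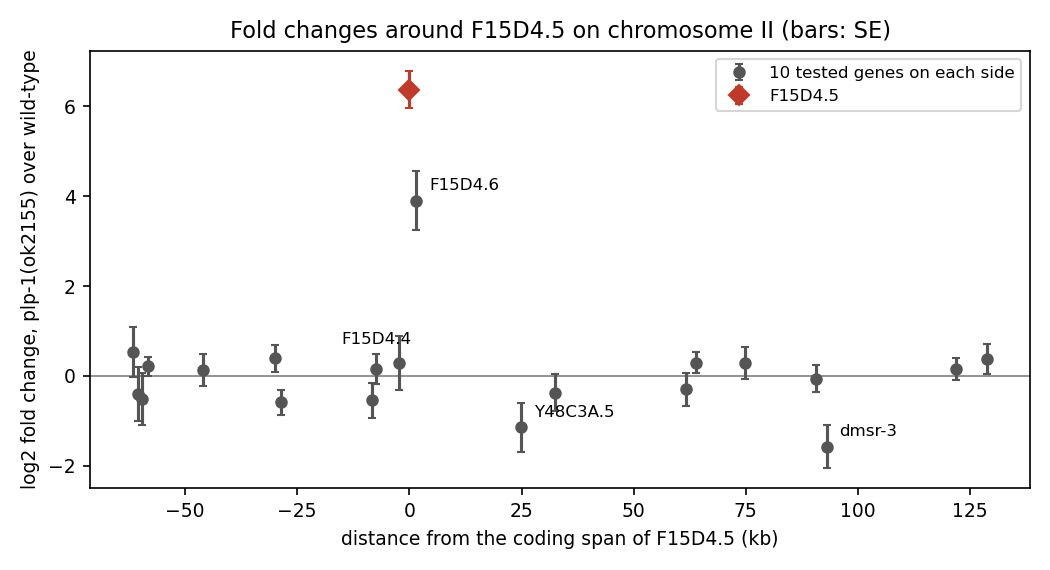
Log2 fold change (plp-1(ok2155) over wild-type, bars are SE) of F15D4.5 and of 10 tested genes on either side against distance in kb on chromosome II. F15D4.5 at 6.37 and F15D4.6 at 3.90 stand above the other 19 genes, which lie between -1.57 and 0.53.

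The annotation holds 2 piRNA loci inside F15D4.5, both on the opposite strand and both wholly within coding exons. The locus 21ur-10687 spans 13246773 to 13246793 on the minus strand in exon 5, and 21ur-10492 spans 13247294 to 13247314 on the minus strand in exon 6. Each is 21 bases long and therefore complementary to the F15D4.5 transcript over its whole length. Such loci are uncommon: of 19985 protein-coding genes, 273 (1.37%) hold at least 1 piRNA locus antisense within an exon and 42 (0.210%) hold at least 2. Among 2892 genes with an exonic length of 1500 to 2000 bases, near that of F15D4.5, these shares were 1.73% and 0.415%. Of the 39 protein-coding genes called higher in the mutant, 2 hold such a locus, F15D4.5 with 2 loci and F40D4.13 with 1. F15D4.5 was chosen for its counts in this contrast, so its own place among the 39 is no result about the called genes. In the list of small RNA targets below, F15D4.5 was the single one of 28 protein-coding genes of the annotation with such a locus.

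These are positions only, and whether either piRNA acts on F15D4.5 was not tested. The poly(A)-selected libraries are not made to capture piRNAs: 21ur-10687 held 0 counts in every library, and 21ur-10492 held 1 count in each of mutant replicates 1 and 2 and 0 in the other 4 libraries. No source used here says whether strand was used in counting.

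**Figure D3:**
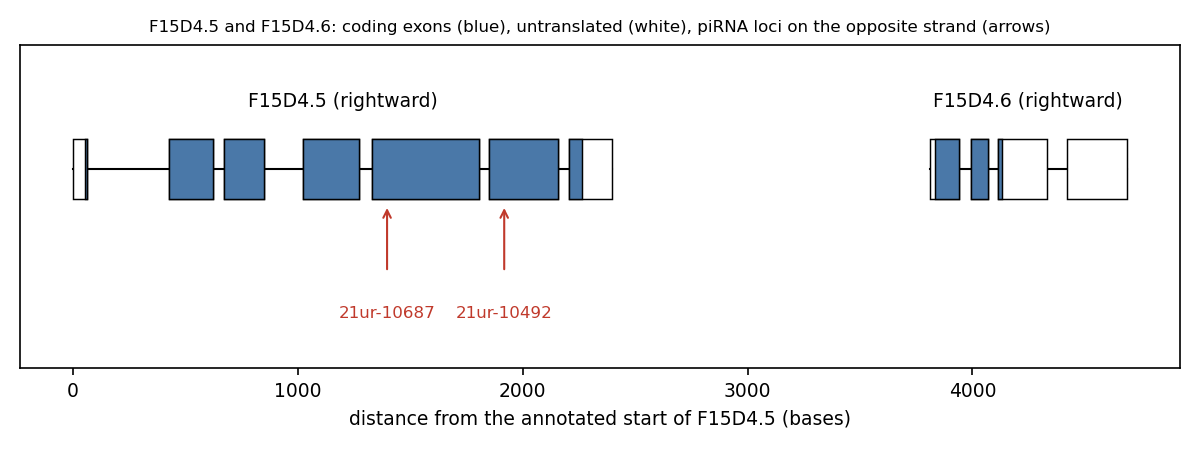
Exons of F15D4.5 and F15D4.6 against distance in bases from the annotated start of F15D4.5, with coding sequence in blue, untranslated sequence in white, and arrows at the 2 piRNA loci on the opposite strand. Both loci fall within coding exons of F15D4.5, exons 5 and 6, and 1411 bases separate the genes.

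F15D4.5 was set beside other genes that the field describes as targets of endogenous small RNAs, a list of 36 further genes found in the table, of which 34 were tested. Of these, 6 rose and none fell, against 0.265% and 0.0795% of all genes (edgeR, adjusted p under 0.05). The 6 were C38D9.2, W09B7.1, W09B7.2, F07B7.1, F07B7.2 and scrm-4, which belongs to the phospholipid scramblases. With the replicate block 7 rose (1.03% of all genes) and with DESeq2 8 rose (2.81%), and with neither did a member fall (0.424% and 0.612% of all genes). The pairs of W09B7 and F07B7 genes had almost equal counts, so that reads may have been divided between copies. The list was written with earlier results of these libraries known and is no independent evidence of direction. Its median log2 fold change was 0.36 against -0.03 over all tested genes, with 22 of 34 members positive, so most of the list did not behave like F15D4.5.

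Among the rising genes, F15D4.5 had an intermediate mutant level and an intermediate fold change. Mean mutant levels per length were 202.6 ± 34.0 FPKM (SD, n = 3) for C38D9.2, 134.1 ± 19.7 for F07B7.2, 126.4 ± 19.2 for W09B7.2, 98.6 ± 17.4 for F15D4.5, 92.2 ± 8.10 for F07B7.1, 89.5 ± 6.54 for W09B7.1 and 67.8 ± 10.6 for scrm-4. F15D4.5 and F07B7.1 differed by less than the SD of either, and the F15D4.5 libraries overlapped those of W09B7.2, which ran from 104.5 to 140.3 FPKM. In wild-type C38D9.2 stood at 1.053, 0.0845 and 0.360 CPM and scrm-4 at 5.40, 1.97 and 2.76 CPM, on either side of F15D4.5. C38D9.2 rose by 9.21 on the log2 scale (SE 0.84, adjusted p = 0.00847 by edgeR) and scrm-4 by 4.01 (SE 0.44, adjusted p = 0.0198 by edgeR). W09B7.1 and F07B7.1 had 26 counts each in wild-type replicate 1 and 0 in both other wild-type libraries.

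In all 6 other rising genes of the list, as in F15D4.5, wild-type replicate 1 held the highest CPM of the 3 wild-type libraries. The same library was the highest for 24 of the 40 genes called higher (60%) and for 37.98% of all tested genes. Because reads may have been divided between the W09B7 and F07B7 copies, the 6 genes are not 6 separate observations. Without wild-type replicate 1 all 6 calls were made, and without any other single library 0 or 1 of the 6 were made, where over all genes 18 were called higher without wild-type replicate 1 and 0 to 5 without another library. The log2 fold changes of the 6 stayed positive with 1 library left out, at 8.63 to 10.52 for C38D9.2, 5.01 to 6.44 for W09B7.2 and 3.65 to 4.53 for scrm-4.

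**Figure D4:**
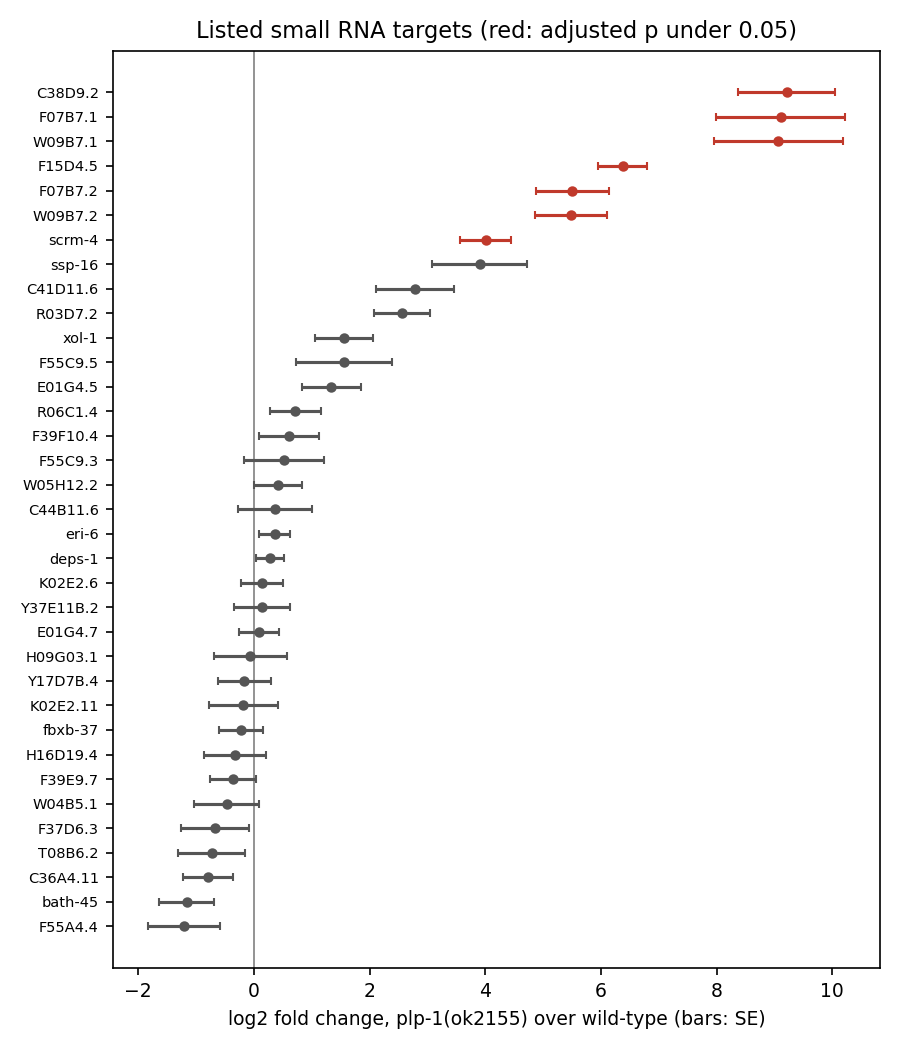
Log2 fold change (plp-1(ok2155) over wild-type, bars are SE) of F15D4.5 and the 34 other tested genes of the small RNA target list, in red where the edgeR adjusted p is under 0.05. F15D4.5 at 6.37 lies between F07B7.2 at 5.51 and W09B7.1 at 9.07, and 12 genes lie below 0.

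The next members by p did not pass the test in edgeR, and DESeq2 called R03D7.2 and ssp-16 among them. R03D7.2, on chromosome II, stood at 3.61, 9.55 and 3.48 CPM in wild-type and 38.3, 24.6 and 35.4 CPM in the mutant, a change of 2.56 on the log2 scale (SE 0.48, adjusted p = 0.0987 by edgeR; with the replicate block 0.0192, with DESeq2 4.0e-05). The groups of R03D7.2 did not overlap, and neither did those of the list members named next. Among the 34 tested members other than F15D4.5, 13 were higher and 3 lower without overlap, against 8.75% and 5.49% of all tested genes. Log2 fold changes were 3.90 for the sperm gene ssp-16 (edgeR adjusted p = 0.113, DESeq2 0.00582), 2.79 for C41D11.6 (0.155), 1.56 for xol-1, the switch gene of sex determination and a known piRNA target (0.32), and 1.34 for E01G4.5, a target of the Argonaute ERGO-1 (0.431). The MATH and BTB domain gene bath-45 pointed the other way at -1.16 (0.495). E01G4.5 and bath-45 also lie on chromosome II, from 13472536 and from 13123038.

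In a list of genes of the silencing pathway, plp-1 included, no other gene passed the test in edgeR. Of 67 matched genes 65 were tested, and plp-1 fell (edgeR, against 0.345% of all genes called in either direction). As the mutated gene, on which the labels were checked, plp-1 is no result about the rest of the list. At an unadjusted p under 0.05, 4 others were higher, against 960 of all 15090 tested genes. Over the 65 genes the median log2 fold change was 0.14, against -0.03 over all tested genes. Of the 65, 43 were positive, against 7165 of the 15090. HRDE-1's gene hrde-1 stood at 371.1, 280.0 and 222.5 CPM in wild-type and 630.4, 425.3 and 341.1 CPM in the mutant, with overlap and a change of 0.68 on the log2 scale (SE 0.33, adjusted p = 0.571 by edgeR). Log2 fold changes were 0.70 for prg-1 (edgeR adjusted p = 0.406), 0.31 for the nuclear RNA interference factor nrde-2 (0.71), 0.34 for csr-1, an essential germline Argonaute (0.725), 0.82 for the germ granule gene pgl-3 (0.438) and 0.56 for the Argonaute gene ppw-2 (0.524). In these 5 genes every mutant library was above every wild-type library, as in 10 of the 65 tested genes of the list and in 8.75% of all tested genes. The Argonautes of sperm development, alg-4 and alg-3, were at 3.29 (0.136) and 3.35 (0.283); DESeq2 called both (adjusted p = 0.00223 and 0.00844).

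Markers of tissues moved with the groups to different degrees, and in whole animals more cells of a type and more RNA per cell cannot be told apart. The summed level of 15 sperm genes was 7.49, 4.92 and 13.3 CPM in wild-type and 67.4, 81.8 and 24.01 CPM in the mutant. All 15 had positive log2 fold changes, and none was called by edgeR. The replicate block called 3 higher and DESeq2 11, against 1.03% and 2.81% of all genes. At an unadjusted p under 0.05 in edgeR, 14 were higher, against 960 of all 15090 tested genes, and 12 were higher with no overlap, against 8.75%. At 24.01 CPM, mutant replicate 3 had the lowest sperm sum of the mutant libraries, above the highest wild-type sum of 13.3 CPM. F15D4.5 stood at 134.9 CPM in mutant replicate 3, between the other mutant libraries. The sums of 8 germline genes ran from 1545 to 1724 CPM in wild-type and from 1863 to 2512 CPM in the mutant. Of these 8, 6 had positive log2 fold changes, against 7165 of all 15090 tested genes, and 4 were higher with no overlap. The sums of 9 oocyte genes overlapped, from 3581 to 3886 CPM in wild-type and from 3247 to 7064 CPM in the mutant. Of these 9, 8 had positive log2 fold changes and 0 were without overlap. None of the germline or oocyte genes was called by edgeR, with the block or by DESeq2. No defining marker of sperm, oocytes or germline was at 0 in any library, and the part of these shifts in the level of F15D4.5 was not tested.

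Like the oocyte sums, the remaining marker sums overlapped between groups. They ran from 40976 to 168639 CPM in wild-type and from 47485 to 98910 CPM in the mutant for 10 intestinal and yolk genes. None of these 10 had a positive log2 fold change, with a median of -0.66 against -0.03 over all tested genes. None of them was called by edgeR, with the block or by DESeq2. For 7 cuticle genes the sums were 1557 to 4837 and 3037 to 4780 CPM, and for 6 muscle genes 991 to 2539 and 1380 to 2396 CPM. For 7 neuronal genes they were 95.7 to 132.6 and 102.6 to 123.8 CPM. For 6 embryonic genes they were 34.5 to 56.02 and 46.9 to 91.9 CPM. Of these 36 genes 35 were tested, and 1, the cuticle collagen gene sqt-1, passed the test (edgeR, against 0.345% of all genes). The replicate block called 5 of them higher, 3 cuticle and 2 muscle genes, and DESeq2 called 6, with 1 embryonic gene besides as many of cuticle and muscle. Over all genes these calls took 1.45% and 3.42% in either direction.

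Likeness to F15D4.5 was measured as Pearson's r of log2 CPM over the 6 libraries, among 9572 other tested genes that reached 5 CPM on average in either group. The points share their libraries and fall into the study's groups, so r mostly reflects the step between groups and carries no test. In all 71 genes had an r of at least 0.95. The highest were tag-344 and islo-1 (both 0.995), H11L12.1 (0.994), F23F12.12 (0.993), C38D9.2 and T28F2.1 (both 0.992), and scrm-4 and W09B7.1 (both 0.991). These genes lie on 5 chromosomes and none of them on chromosome II. The chromosome II neighbour F15D4.6, at a mean of 4.04 CPM in the mutant, did not reach 5 CPM in either group and was not ranked.

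The genes alike in shape differed in size. F23F12.12 averaged 12.5 ± 1.13 CPM in wild-type libraries and 32.3 ± 2.97 CPM in mutant libraries (SD, n = 3 each), a log2 fold change of 1.37 that missed the threshold (adjusted p = 0.105 by edgeR; with the block 0.0348, with DESeq2 0.00045). At the other end T28F2.1 held 0 counts in every wild-type library and 230, 310 and 181 in the mutant libraries. By the mean absolute difference between profiles centred on each gene's mean, which weighs size as well as shape, the nearest were T28F2.1 (0.345 on the log2 scale), F07B7.2 (0.438), W09B7.2 (0.444), C55C3.7 (0.460) and C38D9.13 (0.547). T28F2.1, C55C3.7 and C38D9.13 had 0 counts in at least 1 wild-type library, so their distances rest on the prior count of 2, and with a prior count of 0.5 they were 1.24, 0.947 and 1.07. F07B7.2 and W09B7.2 were at 0.443 and 0.449 with that prior count and were the nearest of all. They stood at 2.86 ± 2.44 and 2.75 ± 2.31 CPM in wild-type and 131.5 ± 20.2 and 123.96 ± 19.9 CPM in the mutant.

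**Figure D5:**
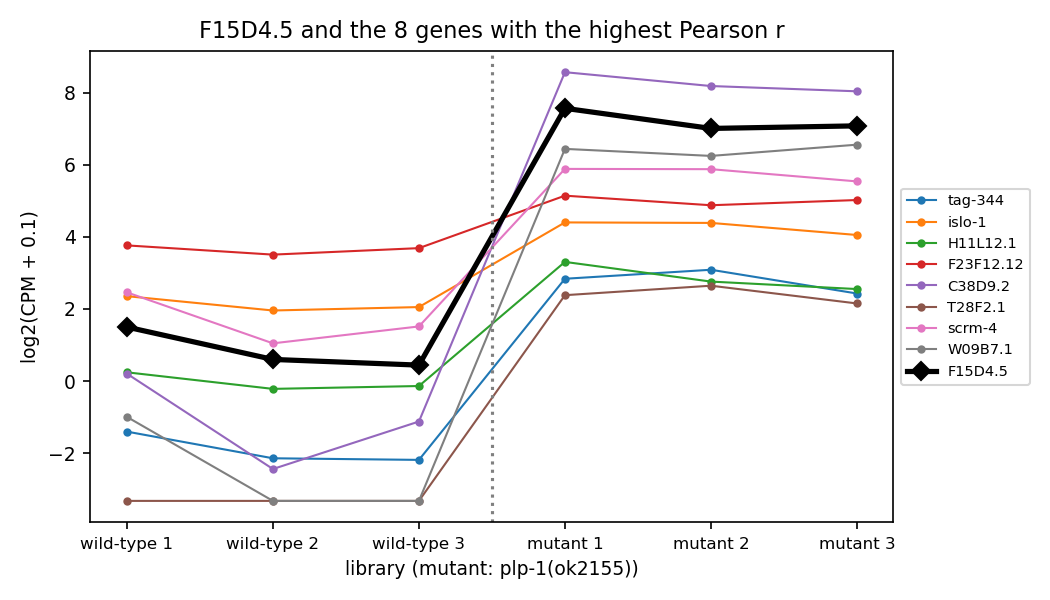
Level on a log2(CPM + 0.1) scale in each library for F15D4.5 (black) and the 8 genes with the highest Pearson r, with the groups parted by a dotted line. All lines step up between the groups, by little for F23F12.12 and by much for C38D9.2, and F15D4.5 stays above 1 CPM in each wild-type library.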

How the data were processed

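Messenger RNA of 3 wild-type and 3 plp-1(ok2155) populations was sequenced from stranded poly(A) libraries, per the labels' protocols. The submitters' processing notes name StringTie 1.3.4d, DESeq2, Bowtie2 2.3.4.1 and HISAT2 2.1.0 as well as Trimmomatic 0.38 and FastQC 0.11.7, without their roles. The authors deposited counts and FPKM values per gene and transcript on WBcel235, per the file headers. Deposited transcript counts of 1 to 50 all lay 0 to 1 above FPKM times length times a library constant (tolerance 0.05), so these are estimates rounded up, and a near-absent transcript can show 1 count.

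Counts entered edgeR 4.0.16 (R 4.3.3) as deposited: filterByExpr, TMM, and the quasi-likelihood test with group as the single term. The SE of a log2 fold change is its size divided by the square root of F. The procedure was run on simulated counts that gave every gene the same spread between replicates. That spread was smaller than the 47.1% estimated here (biological coefficient of variation), so the simulation does not measure error rates for these data. 24 entries without a symbol (0.0024% to 0.0246% of counts) were left out. Log2 CPM used a prior count of 2. Exons and piRNA loci came from the Ensembl annotation of WBcel235. The comparison of proteins and printed sequences were not made, as no sequence was used here. Alternatives were DESeq2 1.42.0, other scalings, no filter, FPKM, the transcript table, a replicate block and leaving out each library. Same-numbered libraries deviated together (correlations 0.28, 0.21 and 0.36), and differently numbered ones did not (-0.34 to -0.04). These are deviations from means of 3 libraries in the same data, which is weak evidence of a pairing, and the labels state none. The replicate block is therefore given as an alternative, and the main test does not use it.

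The gene, the lists and the tests were chosen with earlier results of these data known. The text names genes of the locus with 3 tested genes on either side, list members that were called or had the smallest p, and the genes most like F15D4.5.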

Additional observations from a re-analysis of the deposited data

How the results depend on the processing

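The log2 fold change of F15D4.5 was 6.37 and lay between 6.32 and 6.44 with other scalings, no filter, DESeq2, the transcript table, log2(FPKM + 0.1) and the replicate block. With log2(FPKM + 1) it was 5.53, since that pseudocount is close to the wild-type level. Leaving out 1 library gave 6.10 to 6.80. The counts of genes called higher and lower, 40 and 12, were 491 and 107 with DESeq2, 155 and 64 with the replicate block, and 0 to 18 and 1 to 5 with 1 library left out. The small RNA target list without F15D4.5 had 6 members called higher, 8 with DESeq2, 7 with the replicate block, and 0 to 6 with 1 library left out; fewer libraries were tested there. The silencing list had 1 gene called, plp-1, and 4 with DESeq2, which added alg-3, alg-4 and wago-10. No neighbour was called, against 1 with DESeq2 and 1 with the replicate block, F15D4.6 both times. The log2 fold change of F15D4.4 ran from -0.19 to 0.71 and that of romo-1 from -0.13 to 0.32 when 1 library was left out, turning negative without wild-type replicate 2 for F15D4.4 and without wild-type replicate 1 or mutant replicate 3 (-0.03) for romo-1; the cause was not tested. Beside F15D4.6, the block called R03D7.2 and F23F12.12 among the named genes and changed no other call among them. Of the 8 genes most like F15D4.5, 6 were shared with a prior count of 0.5 and 4 with log2(FPKM + 0.1). Of the 5 nearest by distance, 4 were shared with the Euclidean distance and 2 with a prior count of 0.5. F15D4.6 had 6 counts in each of 2 wild-type libraries, which limits its wild-type level.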
